A study of Mus musculus with 3 samples.

Results

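Peaks of the zinc finger factor Sp9 that carry the name of a cell cycle gene are described here, as found by chromatin immunoprecipitation and sequencing in the olfactory bulb of newborn mice. The set of 51 genes comprises cyclins, cyclin-dependent kinases, their Cip/Kip and Ink4 inhibitors, E2f and Rb proteins, replication factors and mitotic regulators. It was compiled by function, and a peak was assigned to a gene where the gene name in the list of peaks was exactly that symbol. By this rule 43 of the 51 genes had at least 1 peak, and they had 63 of the 19979 peaks of the list. Sp9 was precipitated in 2 libraries, which are set against 1 input library prepared without antibody, all from whole bulbs of CD1 mice at postnatal days 0 to 2. All 3 libraries share strain, age and tissue, no mutant was included, and the antibody was homemade. The study's question was the joint part of Sp8 and Sp9 in forming the interneurons of the bulb. The list gives 1 interval, 1 score and 1 gene name per peak and no value per library, so no peak has an error between replicates and no test between groups could be made. Read numbers were not analysed here, and the depth behind each peak is unknown.

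The cell cycle is driven by cyclin-dependent kinases (Cdks), which are active only when bound to a cyclin. D-type cyclins with Cdk4 or Cdk6 phosphorylate the pocket proteins Rb1, Rbl1 and Rbl2, which then release E2f factors to switch on cyclin E, cyclin A and the genes of DNA replication. Ink4 and Cip/Kip proteins block these kinases and hold cells out of the cycle. Interneurons of the olfactory bulb arrive, also after birth, as neuroblasts from the subventricular zone, and some of these neuroblasts still divide on their way. Sp factors bind GC boxes and related CACCC boxes through their zinc fingers. The list holds no expression, so the cell types of the tissue could not be checked against their markers. In whole bulbs, binding in more cells and more binding per cell cannot be told apart.

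Genes of the cell cycle carried Sp9 peaks more often than coding genes as a whole, while the median score of the linked genes was similar. A linked peak was found for 43 of 51 genes (84.3%), against 55.4% of 21900 protein-coding genes. The authors' peak score, whose formula the sources used here do not give and which serves here to rank peaks within the list, ran from 80.01 to 3139.09 over all peaks with a median of 210.06 and an upper quartile of 353.56. A peak at or above the median score was present for 27 of the 51 genes (52.9%), against 35.4% of coding genes. At or above the upper quartile there were 17 genes (33.3%), against 19.2%, and at or above the 90th percentile (536.03) there were 9 (17.6%), against 7.88%. Among genes that had any peak, 62.8% of the cell cycle genes reached the median, against 64% of coding genes. The upper quartile was reached by 39.5% of the linked cell cycle genes, against 34.6% of the linked coding genes, and the 90th percentile by 20.9%, against 14.2%. The highest peak per gene had a median score of 272.02 over the 43 linked cell cycle genes (quartiles 172.13 and 468.53), against 273.25 over all 12136 linked coding genes (quartiles 165.19 and 422.68). In number of peaks, 13 cell cycle genes had 2 or more (25.5%), against 15.5% of coding genes, and 4 had 3 or more (7.84%), against 5.62%. Counting linked genes only, these shares were similar. For 2 or more peaks they were 30.2% of cell cycle genes against 27.9% of coding genes, and for 3 or more 9.3% against 10.1%. These shares describe 1 list, and the genes were chosen with earlier results of these data known.

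**Figure D1:**
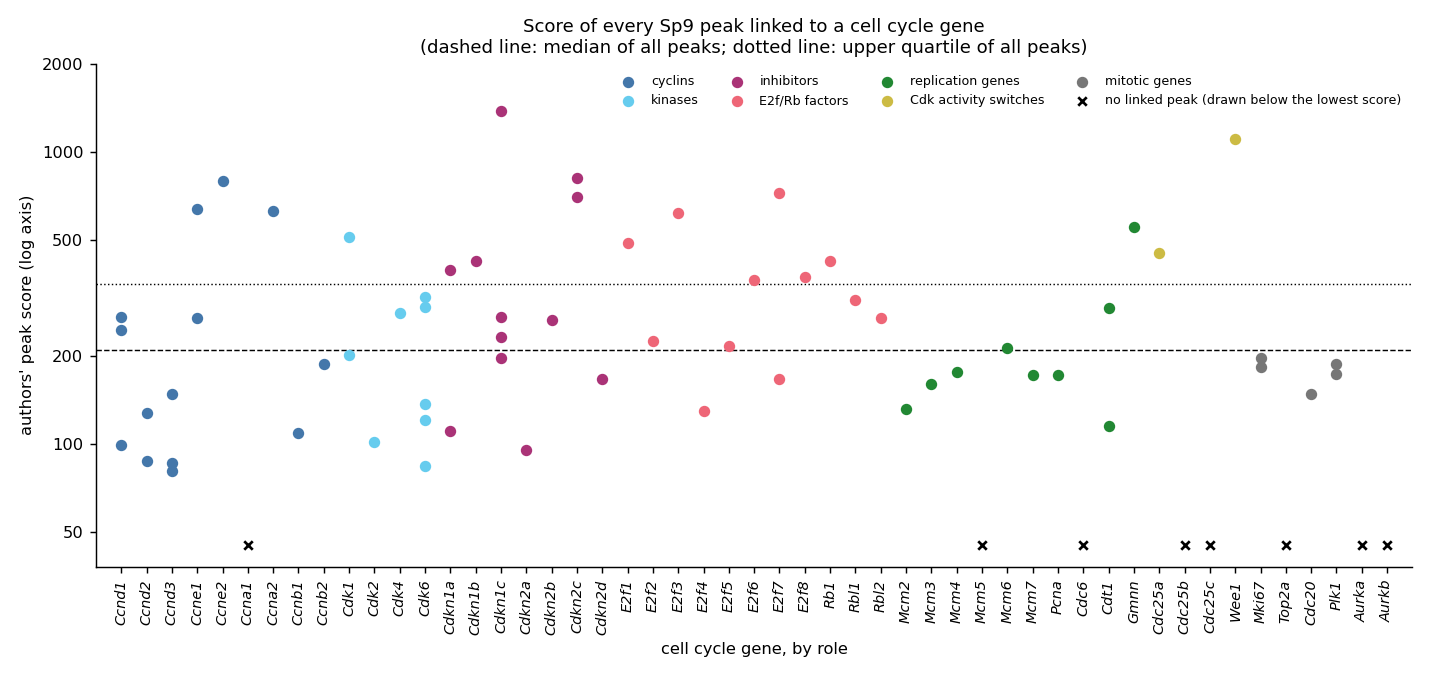
The authors' peak score (log axis) is plotted for each of the 63 peaks linked to a cell cycle gene, with genes ordered by role, colours marking classes and crosses marking the 8 genes without a linked peak. E2f and Rb genes lie mostly above the dashed median of all peaks at 210.06, and all 5 peaks of the mitotic genes lie below it.

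The classes differed in how often and how high their genes were linked, and some lay near the shares of all coding genes. Those shares were 55.4% linked, 35.4% at or above the median and 19.2% at or above the upper quartile. All 11 E2f and Rb genes had a peak, and 10 of them (90.9%) reached the median score. All 7 Cdk inhibitors had a peak, with 5 (71.4%) at or above the median and 4 (57.1%) at or above the upper quartile. All 4 kinases were linked, 3 of them at or above the median. Of the 9 cyclins, 8 were linked, with 4 (44.4%) at or above the median. Replication genes were linked often but with low scores, 8 of 10 having a peak (80%). The median was reached by 3 of the 10 (30%), near the 35.4% of coding genes. Of the 6 mitotic genes, 3 were linked (50%, near the 55.4% of coding genes) and 0 reached the median. Of the 4 genes that switch Cdk activity, Wee1 and the Cdc25 phosphatases, 2 were linked, both in the upper quartile. The median of the highest score per linked gene was 365.11 for E2f and Rb genes, 394.23 for inhibitors, 299.44 for kinases, 229.62 for cyclins, 174.34 for replication genes, 188.27 for mitotic genes and 778.98 for the 2 linked genes that switch Cdk activity. Classes hold 4 to 11 genes, and differences between them were not tested.

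**Figure D2:**
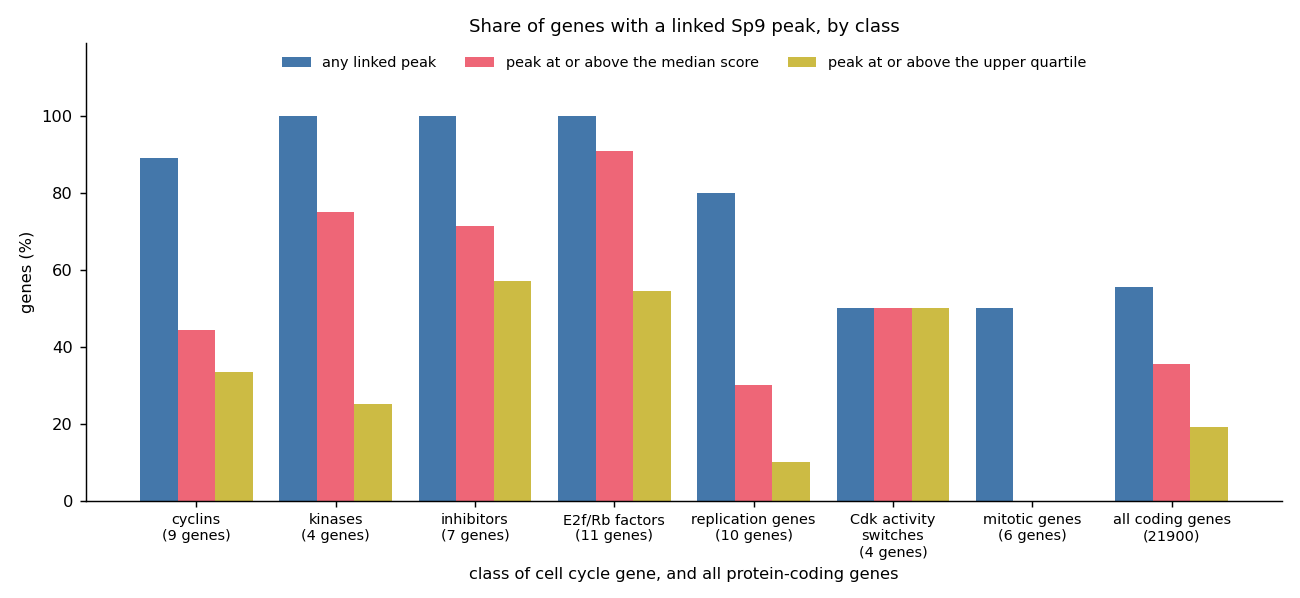
The bars give the percentage of genes in each class with any linked peak, with a peak at or above the median score and with a peak at or above the upper quartile, and the last set gives the same for all 21900 protein-coding genes. E2f and Rb genes reach 100%, 90.9% and 54.5%, mitotic genes reach 50%, 0% and 0%, and all coding genes reach 55.4%, 35.4% and 19.2%.

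Promoter sequence from RefSeq (build GRCm38.p6) is shown for the highest-scoring gene with an entry in each of 6 roles, because each of these genes carries a peak and Sp factors read GC-rich promoter letters. The windows are those of the Ink4 gene Cdkn2c (chr4:109666707-109667006, minus strand), the E2f gene E2f7 (chr10:110745189-110745488, plus strand), cyclin E1 (chr7:38107441-38107740, minus strand), Cdk1 (chr10:69352863-69353162, minus strand), the phosphatase gene Cdc25a (chr9:109875329-109875628, plus strand) and the Cip/Kip gene Cdkn1b (chr6:134920151-134920450, plus strand). Each runs 5′ to 3′ from 250 bases before the gene's start to 50 bases after it. Capitals mark 4 kinds of letters, each searched on both strands. GC boxes, which Sp factors bind best, were read as GGGCGG. The CACCC boxes that Sp and Klf factors also bind were read as GGGTGG. The E2f sites of cell cycle promoters were read as TTCGCGC, with the further spelling TTGGCGC allowed for it and, as another form of the site, TTCCCGC. The cell cycle homology region, named CHR, is bound by the MuvB complex and was read as TTTGAA. Peaks are in build mm9, so the windows were not laid over the peaks and whether a peak covers its gene's window was not measured.
Cdkn2c: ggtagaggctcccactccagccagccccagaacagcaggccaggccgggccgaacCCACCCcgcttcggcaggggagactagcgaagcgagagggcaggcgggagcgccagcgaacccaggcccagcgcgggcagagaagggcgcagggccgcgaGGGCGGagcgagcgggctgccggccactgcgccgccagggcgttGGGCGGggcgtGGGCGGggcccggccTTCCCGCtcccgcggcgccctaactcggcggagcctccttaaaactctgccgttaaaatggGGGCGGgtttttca
E2f7: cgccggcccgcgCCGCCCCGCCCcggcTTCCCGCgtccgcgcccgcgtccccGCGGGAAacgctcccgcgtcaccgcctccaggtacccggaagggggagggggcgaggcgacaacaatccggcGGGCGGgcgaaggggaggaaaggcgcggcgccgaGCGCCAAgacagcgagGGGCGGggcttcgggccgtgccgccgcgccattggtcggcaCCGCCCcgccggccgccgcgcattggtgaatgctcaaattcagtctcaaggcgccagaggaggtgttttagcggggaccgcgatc
Ccne1: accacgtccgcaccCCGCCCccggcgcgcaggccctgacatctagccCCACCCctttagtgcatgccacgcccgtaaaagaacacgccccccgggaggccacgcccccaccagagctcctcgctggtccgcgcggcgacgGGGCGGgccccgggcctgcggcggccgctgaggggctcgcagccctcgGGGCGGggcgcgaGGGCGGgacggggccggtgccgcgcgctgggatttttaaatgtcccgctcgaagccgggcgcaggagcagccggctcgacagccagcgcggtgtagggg
Cdk1: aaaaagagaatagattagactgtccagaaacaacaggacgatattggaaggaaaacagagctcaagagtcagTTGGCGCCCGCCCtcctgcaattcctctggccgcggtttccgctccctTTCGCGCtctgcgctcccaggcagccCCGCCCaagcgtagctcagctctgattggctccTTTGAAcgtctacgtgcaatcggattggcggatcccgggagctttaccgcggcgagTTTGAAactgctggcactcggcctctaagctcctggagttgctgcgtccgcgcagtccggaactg
Cdc25a: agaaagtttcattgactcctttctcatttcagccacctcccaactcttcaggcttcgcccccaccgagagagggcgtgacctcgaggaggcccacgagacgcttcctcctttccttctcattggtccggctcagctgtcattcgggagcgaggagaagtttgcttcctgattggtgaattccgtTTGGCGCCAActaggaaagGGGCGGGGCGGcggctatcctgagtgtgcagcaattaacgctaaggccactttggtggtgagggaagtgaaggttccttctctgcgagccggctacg
Cdkn1b: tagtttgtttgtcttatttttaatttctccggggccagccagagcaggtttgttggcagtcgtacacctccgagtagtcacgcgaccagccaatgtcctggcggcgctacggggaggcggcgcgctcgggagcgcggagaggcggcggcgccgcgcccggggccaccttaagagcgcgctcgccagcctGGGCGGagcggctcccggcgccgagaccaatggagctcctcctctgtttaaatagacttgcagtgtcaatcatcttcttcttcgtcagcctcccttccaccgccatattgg

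All 6 windows held at least 1 GC box. E2f7 had 5, of which a pair near the 5′ end share a base, and Cdkn2c and Ccne1 had 4 each. In Cdc25a, 2 GC boxes overlap by a base at 47 and 42 bases before the start, beside overlapping E2f letters on both strands at 66 and 63 bases before it. Cdk1 combined 2 GC boxes with E2f letters at 178 and 130 bases before the start and CHR letters at 71 and 15 bases before it. Cdkn1b held 1 GC box, 61 bases before the start. Neither the Cdkn1b window nor that of Ccne1 held E2f or CHR letters, and that of E2f7 held 3 E2f matches. A further window of Cdkn2c, for another start in RefSeq, held 1 CACCC box and no GC box.

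Over all cell cycle genes with a window, GC boxes and E2f letters were common. RefSeq windows were at hand for 38 of the 51 genes, 32 with a linked peak and 6 without. A GC box was present for 30 of the 32 linked genes (93.8%) and for 3 of the 6 others, and of all coding genes it was present for 68.0% of those with a linked peak and 26.2% of those without. CACCC boxes were present for 18 of the 32 linked genes (56.2%), against 42.0% of all linked coding genes. E2f letters of any of the 3 forms were held by 16 of the 32 (50%), against 15.9% of all linked coding genes, and CHR letters by 11 (34.4%), against 14.0%. Over single windows of the same length, 46.2% of the 21263 windows of coding genes hold a GC box, 33.6% a CACCC box, 10.4% E2f letters and 16.0% CHR letters. E2f letters and CHR letters in such promoters are textbook features of cell cycle genes, and a match of letters does not show that a factor binds there.

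**Figure D3:**
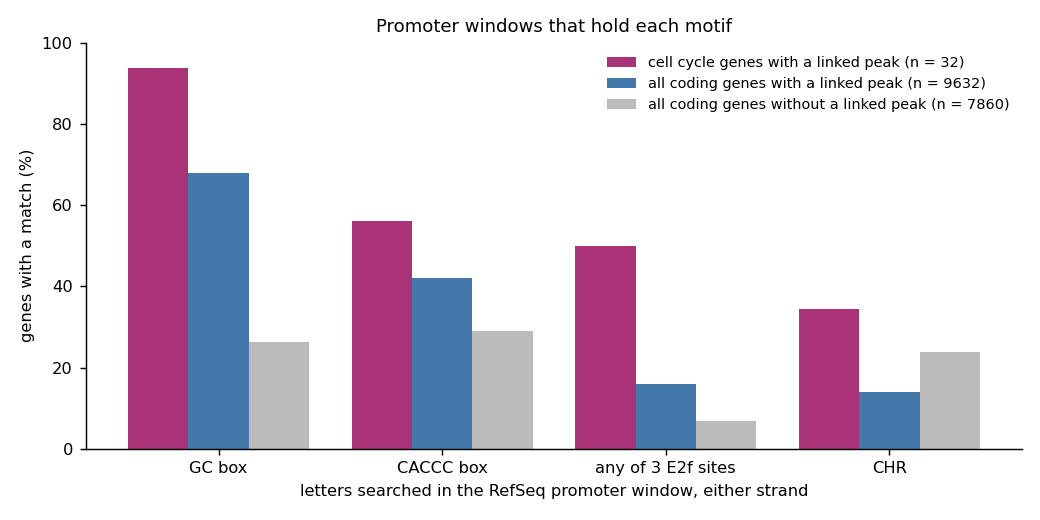
Bars give the percentage of genes whose promoter window holds each motif on either strand, for the 32 cell cycle genes with a linked peak and a window, all 9632 coding genes with both, and the 7860 coding genes with a window and no linked peak. GC boxes reach 93.8%, 68.0% and 26.2%.

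Over all coding genes, GC boxes and E2f letters were more frequent with a linked peak than without, at 68.0% against 26.2% and 15.9% against 6.81%, whereas CHR letters were less frequent, at 14.0% against 23.9%. The windows of coding genes also differed in median GC content, at 63% with a linked peak and 50% without. For the 38 cell cycle genes with a window it was 64.3%. Whether the letters differ beyond what base composition gives was not tested. The share of linked genes was therefore also taken among genes with and without GC boxes or E2f letters, a choice made after the values had been seen. With a GC box in the window, 30 of 33 cell cycle genes were linked (90.9%), against 76.1% of 8611 coding genes. Without one, 2 of 5 cell cycle genes were linked (40%), against 34.7% of 8881 coding genes. With E2f letters, 16 of 18 cell cycle genes were linked (88.9%), against 74.1% of 2064 coding genes. Without them, 16 of 20 cell cycle genes were linked (80%), against 52.5% of 15428 coding genes. The 55.4% of all coding genes is therefore a lower figure than that of coding genes with GC-box promoters, and the part of promoter composition in the members' share was not tested further.

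D-type cyclins, which start the cycle in response to growth signals, all had 2 or more peaks, none of which reached the upper quartile. Ccnd1, the main D-type cyclin of neural progenitors, had 3 peaks within 5.27 kb of chromosome 7. They lay, in mm9 like all peak positions given here, at chr7:152124345-152125912 (1567 bp, score 246.14), chr7:152127051-152127902 (851 bp, 99.33) and chr7:152128339-152129615 (1276 bp, 272.02). The outer peaks of Ccnd1 were above 57.6% and 62.3% of all peaks and the middle peak above 11.7%. Ccnd2, which is prominent in cycling precursors of the postnatal bulb, had 2 peaks of score 127.24 and 87.63, 24965 bp apart. Ccnd3 also had 3 peaks, at chr17:47641565-47642171 (score 86.13), chr17:47730222-47731000 (148.43) and chr17:47731009-47731718 (80.54). The last of these is separated by 9 bp from its neighbour and was above 0.29% of all peaks. Of the D-type cyclins, only Ccnd1 passed the median.

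E-type cyclins, which activate Cdk2 as cells enter S phase, had the highest cyclin peaks. Ccne2 had 1 peak of score 796.76 at chr4:11117452-11119192 (1740 bp), above 97.3% of all peaks. Ccne1 had a peak of score 634.51 at chr7:38891595-38893197 (1602 bp), above 93.8%, and a further peak of score 270.32 at chr7:38869434-38870895, 20.7 kb away. Cyclin A2 (Ccna2), the A-type cyclin of dividing somatic cells, had 1 peak of score 627.85 at chr3:36470267-36471342, above 93.6% of peaks although its 1075 bp exceeded the width of only 59.9% of them. Cyclin A1 (Ccna1), which acts mainly in the testis, had no linked peak. The B-type cyclins of mitosis, Ccnb1 and Ccnb2, had 1 peak each below the median, of score 109.28 and 187.22. Ccne2, Ccne1 and Ccna2 thus had the highest scores among the cyclins, and Ccnb1 the lowest when each is represented by its highest peak.

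Among the kinases, Cdk1, the kinase of mitotic entry, had the highest score. Its peaks lay at chr10:68861331-68862368 (score 510.47, above 88.5% of all peaks) and chr10:68814976-68815926 (201.78), 45.4 kb apart. Cdk6, a partner of D-type cyclins, had 5 peaks as deposited, the most of any cell cycle gene before close peaks are merged, over 193 kb of chromosome 5. Of these, 3 formed a run with gaps of 25 and 145 bp, at chr5:3341042-3341874 (137.26), chr5:3341899-3343204 (294.21) and chr5:3343349-3344861 (317.19). The other 2, at chr5:3186443-3187100 (120.62) and chr5:3152181-3152688 (84.12), lay 154 kb and more from the run. Cdk4, the other D-type partner, had 1 peak of score 281.68, and Cdk2, the partner of cyclins E and A, had 1 of score 101.76, above 13.1% of peaks.

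The Cip/Kip inhibitors, which bind Cdk complexes broadly and promote exit from the cycle, were all linked with peaks in the upper quartile. Cdkn1c, an imprinted gene whose product acts in differentiating neurons, had the highest score of the whole set. Its main peak at chr7:150644818-150647484 scored 1376.16, ranked 75 of 19979, and was 2666 bp wide, wider than 99.1% of peaks. The gene had 3 further peaks within 28.1 kb, at chr7:150623251-150624479 (232.19), chr7:150630865-150632217 (272.43) and chr7:150650608-150651349 (196.25). Cdkn1b, the main Cip/Kip inhibitor of many quiescent cells, had 1 peak of score 423.77 at chr6:134869828-134871051, above 82.2% of peaks. Cdkn1a, the inhibitor induced by p53, had a peak of score 394.23 at chr17:29230160-29232224 and a minor peak of 110.45 at chr17:29235151-29235889. The main Cdkn1a peak was wide for its score, wider than 96.9% of peaks and higher than 79.6%.

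Ink4 inhibitors, which block Cdk4 and Cdk6, were all linked but at very different scores. Cdkn2c, an Ink4 gene of neural precursors, had 2 high peaks 7.42 kb apart, of score 815.12 at chr4:109338189-109339870 and 702.67 at chr4:109329367-109330772, above 97.5% and 95.5% of all peaks. Cdkn2b had 1 peak of score 265.76 and Cdkn2d 1 of score 166.78. Cdkn2a, which is silent in most young tissues and encodes an Ink4 and an Arf protein, had 1 peak of score 95.13, above 9.46% of peaks. Between the peaks of the adjacent genes Cdkn2a and Cdkn2b lay a peak of score 553.47 named Gm12610, higher than either, 14.7 kb from that of Cdkn2b.

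**Figure D4:**
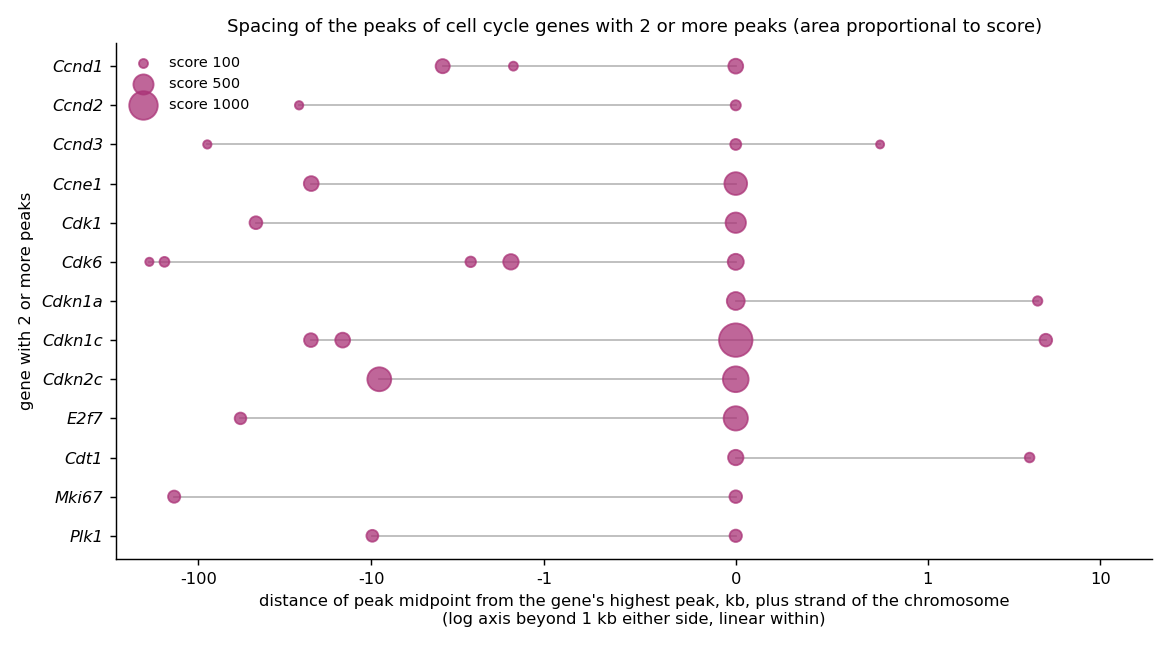
Each circle is a peak of a cell cycle gene with 2 or more peaks, placed by the distance of its midpoint in kb from that gene's highest peak along the plus strand, with a log axis beyond 1 kb and circle area in proportion to score. Cdkn2c has 2 peaks of similar score, Cdkn1c has 1 dominant peak of 1376.16 with 3 lower ones, and the peaks of Cdk6 reach 192 kb from its highest.

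E2f genes were all linked, and 7 of the 8 reached the median score. Among the activators, E2f3 had a peak of score 618.94 at chr13:30075579-30078048, wider at 2469 bp than 98.6% of peaks, and E2f1 had 1 of score 486.42 at chr2:154394671-154396019. E2f2, the other activator, had 1 peak of score 225.52. Of the repressors tied to resting cells, E2f4 had 129.21, the lowest of the family, and E2f5 had 216.87. E2f6, a repressor that does not bind pocket proteins, had a peak of score 365.11 at chr12:16817275-16818438. The atypical repressors E2f7 and E2f8, which damp the wave of E2f activity, had scores of 723.93 at chr10:110181624-110183051 and 373.30 at chr7:56135929-56137590. E2f7 alone in the family had a further peak, of score 166.54 at chr10:110124980-110125645, 56 kb from the first.

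Each pocket protein gene had 1 peak at or above the median. Rb1 scored 421.60 at chr14:73724671-73726214 (1543 bp), above 82% of all peaks. Rbl1, which pairs with repressive E2f factors in cycling cells, scored 311.11, and Rbl2, which does so in resting cells, scored 269.21 with a narrow peak of 659 bp. Across the E2f and Rb genes, 12 peaks belonged to 11 genes.

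Genes of DNA replication had mostly low peaks. Of the minichromosome maintenance genes, which encode the replicative helicase, Mcm6 had the highest score with 212.80, just above the median. Mcm4 (176.05), Mcm7 (171.65), Mcm3 (160.82) and Mcm2 (131.91) followed, and Mcm5 had no linked peak. Pcna, the sliding clamp of the polymerases, scored 172.62 with a peak of 1317 bp, wider than 78.6% of all peaks and higher than 40.7%. Cdt1, which loads the helicase, had 2 peaks of score 291.75 and 115.25 that were 3 kb apart. Cdc6, its partner in loading, had none. Gmnn encodes geminin, the inhibitor of Cdt1 that also acts in neural progenitors, and stood above the others with 1 peak of score 551.92 at chr13:24853144-24854336, above 90.8% of all peaks.

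The regulators that switch Cdk activity on and off lay far apart. Wee1, the kinase that holds Cdk1 inactive, had a peak of score 1107.33 at chr7:117264975-117266841 (1866 bp), which ranked 159 in the list and was the next highest of the set after Cdkn1c. Cdc25a, the phosphatase that opposes such inhibition at S phase entry, had 1 peak of score 450.64 at chr9:109777881-109779092. Cdc25b and Cdc25c, its relatives at mitotic entry, had no linked peak.

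The linked mitotic genes all had scores below the median of all peaks. Mki67, the proliferation marker that coats mitotic chromosomes, had peaks of score 196.14 and 183.67, lying 137 kb apart. Plk1, a kinase of mitotic entry, had 188.27 and 173.80, and Cdc20, the activator of the anaphase-promoting complex, had 148.75. Top2a, which untangles sister chromatids, and the Aurora kinase genes Aurka and Aurkb had no linked peak.

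Width followed score, with a Spearman correlation of 0.77 across the 63 peaks and 0.74 across all peaks, which share their libraries and calling. The 63 peaks had a median width of 1075 bp (507 to 2666 bp), against 986 bp for all peaks. All 63 lay on the chromosome of the gene whose name they carry.

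In the order of coding genes in the RefSeq table, the 8 genes without a peak of their own all had a neighbour with one. Mcm5 lies beside Rasd2, with a peak of 699.48, and Cdc25b beside Cenpb, with 545.39. Top2a lies between Gjd3 (518.51) and Igfbp4 (410.01), Aurkb beside Borcs6 (373.70), Aurka between Fam210b (337.60) and Cstf1 (131.77), and Cdc6 between Rara (300.92) and Wipf2 (152.15). Ccna1 lies beside Spg20 (183.67) and Cdc25c between Gfra3 (154.13) and Fam53c (115.18). Cdc25b and Cenpb, Aurka and Cstf1, Ccna1 and Spg20, and Top2a and Igfbp4 are transcribed away from each other. Since a peak carries 1 name, a peak between such genes is counted for 1 of them. Orientation was not known for Cdc25c and Aurkb with either neighbour, Top2a with Gjd3, and Mcm5 with its other neighbour Hmox1. A peak of their own or of a neighbour was present for all 51 cell cycle genes, against 82.8% of coding genes. That share includes genes with a peak of their own. Of 21900 coding genes, 18142 had either kind of peak and 12136 had a peak of their own. Coding genes without a peak of their own are the background for the 8 genes. Most of those coding genes also had a neighbour with a peak, and the difference was not tested.

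Beyond the 51 genes, 7 lists of related genes, also compiled with earlier results known, had 72 of 101 matched genes linked (71.3%), against 55.4% of coding genes. Partners of E2f and Rb proteins in the DREAM and MuvB complexes had 6 of 9 linked with high scores, the median being 555.69, led by the E2f dimer partners Tfdp1 (810.45) and Tfdp2 (613.52). Origin recognition and initiation genes had 8 of 16 (50%, below the share of coding genes), led by Mcm9 (387.50) and Orc2 (323.80). The upper quartile was reached by 1 of the 16 (6.25%), against 19.2% of coding genes. DNA damage and checkpoint genes had 3 of 9 matched genes linked (33.3%, also below it), led by the p53 regulators Mdm2 (257.07) and Mdm4 (169.02). A further gene of this list, searched under the name Claspn, matched no gene name and was left out. Ubiquitin ligase genes had 16 of 20, led by Cul1 (941.58), the cullin of the SCF ligase, and Fbxw7 (740.71), the SCF receptor that targets cyclin E. Spindle and kinetochore genes had 13 of 17 with a median of 172.76, led by Birc5 (320.45) and Ttk (300.97). The upper quartile was reached by 0 of the 17, against 19.2% of coding genes.

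Other cyclins and kinases had 18 of 20 linked, led by Cdk8 (1562.33), a kinase of the Mediator complex, and Cdk13 (1393.55), which acts in transcription. Both scores were higher than any of the 51 genes. The Cdk8 peak, at chr5:147072329-147073175, was narrower than the median of all peaks (986 bp), although its score was above 99.8% of them. Why so narrow a peak scored so high was not tested. Antiproliferative and exit genes had 8 of 10 linked with a median of 503.73, led by Gas1 (1204.98), a membrane protein first found in growth-arrested cells, and Btg1 (604.12). Of these 10 genes, 6 had 2 or more peaks (60%), against 15.5% of coding genes. The 7 lists share no gene with the 51, and differences between lists were not tested.

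**Figure D5:**
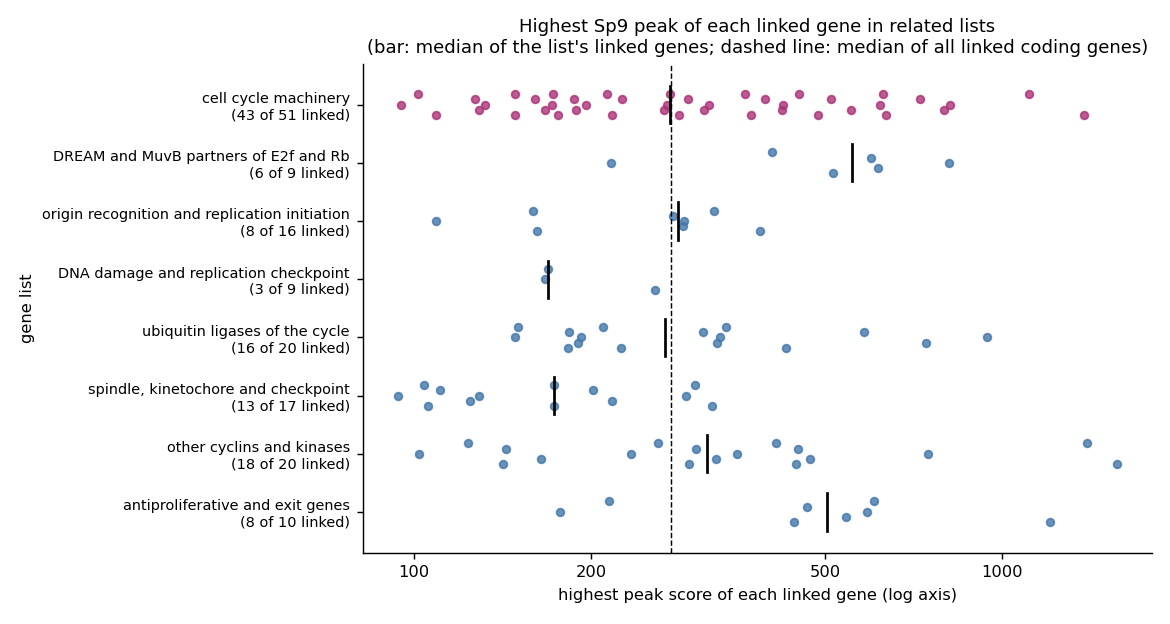
Each point is the highest peak score (log axis) of a linked gene in the cell cycle set or in 1 of the 7 related lists, with a bar at the median of each list's linked genes and a dashed line at 273.25, the median of all linked coding genes. The medians run from 169.02 for DNA damage and checkpoint genes to 555.69 for DREAM and MuvB partners.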

How the data were processed

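Chromatin of whole neonatal olfactory bulbs was fixed with 1% formaldehyde for 10 min and sheared to 200 to 1000 bp, and sequencing was paired-end with 150 bases per read, per the labels' protocols. The submitters' processing notes name Bowtie2 2.2.4, MACS 1.4.2 and build mm9, without roles or settings. The deposited file holds shared peaks, each with a position, a peak score and a gene name. The sources used here do not give the rule for a shared peak, the formula of the deposited score or the annotation. Positions are printed as deposited by the authors, and whether starts count from 0 or 1 is not stated.

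Gene names were matched to RefSeq genes of GRCm38.p6 by symbol (12806 of 13383 names) or by a synonym held by 1 gene (527); 50 names, on 89 peaks, did not match. That table gave names, gene class and gene order. No coordinate was moved between builds. A linked peak is one that carries the gene's name, and the list gives no distance to the gene.

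The members, lists and alternatives were chosen with earlier results of these data known. Full values are given for genes whose highest peak is in the upper quartile or that have 3 or more peaks, and for the lists the 2 genes with the highest scores. Of 102 list genes, 101 matched. No test was run, because the list has no value per library. Functions were tested on simulated data. Python 3.11.15 and pandas 2.3.3 were used.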

Additional observations from a re-analysis of the deposited data

How the results depend on the processing

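The count of 43 linked genes was the same on placed chromosomes only (against 55.3% of coding genes) and with synonyms counted, and it became 51 with neighbours' peaks counted (against 82.8%). With peaks at or above the median score only, 27 of the 51 genes and 45 genes of the related lists were linked (against 35.4%), and 3 of the 12 role groups had every member linked, against 8 as deposited. With the upper quartile as the minimum, these values were 17, 24 (against 19.2%) and 2. Fewer peaks remain under both settings by construction. Role groups hold 2 to 10 genes, and how often groups of such size are fully linked among all coding genes was not taken. Set against genes of all classes, the background was 26.7%. Among genes without a GC box in the promoter window, a setting added after the data had been seen, 2 cell cycle genes were linked, because 5 have such a window. Merging peaks within 1000 bp left 59 of the 63 peaks and 13 genes with 2 or more (against 14.3% of coding genes). The merged peaks were those of Ccnd1, Ccnd3 and Cdk6, with gaps of 437, 9, 25 and 145 bp. Ccnd1 and Ccnd3 then had fewer than 3 peaks, and Cdk6 had fewer than the 4 of Cdkn1c. Taking the median of each gene's peaks gave 246.14 in place of 272.02. For single role groups and lists, 16 of 38 counts stayed within 1.5 times. Leaving out a library and another overlap were not run, because the list has no value per library. No paired analysis was possible because each peak has 1 score for all libraries. Since depth is unknown, a gene without a peak may still be bound below detection.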

Other observations

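The surroundings of the peaks differed between cell cycle genes. All peaks of other names were counted from 100 kb before a gene's first peak to 100 kb after its last. The stretch searched was thus longer for genes with spread peaks, such as Ccnd3, whose peaks span 90.2 kb. E2f4 had 15 such peaks, Ccnd3 had 10, and Cdkn2d and Cdt1 had 8 each. The genes Cdk1, Cdk6, E2f3 and Mki67 had 0. Of the 63 peaks, 15 had a peak of another name within 10 kb (23.8%), against 11.6% of all peaks, and 11 had none within 100 kb (17.5%), against 35.3% of all peaks.

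Peaks named for fibroblast growth factors, secreted signals of growth, lay within 100 kb of the peaks of Ccnd1 and Ccnd2, and none did near Ccnd3. Near Ccnd1 were peaks named Fgf3, Fgf4 and Fgf15, the highest being that of Fgf4 with 522.91, above the 272.02 of Ccnd1 itself. Near Ccnd2 was a peak of Fgf23 with 177.19, above the 127.24 of Ccnd2. A higher peak of another name lay within 100 kb for many other genes of the set as well, though not for all. How often peaks named for Fgf genes lie near coding genes in general was not counted. Near Cdkn1c were peaks of Phlda2 (206.36), like Cdkn1c an imprinted gene, and of Nap1l4 (453.88), both lower than the main peak of Cdkn1c.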
